A study of Mus musculus with 24 samples.

Results

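The opioid system of the nucleus accumbens (NAc) was followed through the mRNA of 7 genes, the precursors of the opioid peptides (*Penk*, *Pdyn* and *Pnoc*) and the opioid receptors (*Oprm1*, *Oprd1*, *Oprk1* and *Oprl1*). They were found by symbol through their Ensembl identifiers, 7 of the 38293 genes in the mRNA counts, and all 7 passed the filter on low counts that 18593 genes passed. Male and female C57BL/6J mice, 9 weeks old by the labels, either went through subchronic variable stress (SCVS), a course of daily alternating foot shock, tail suspension and restraint, or were left unstressed. Bilateral NAc punches were taken a day after the last stressor, and each library held 10 punches pooled from 5 mice, so that a library averages over animals. The 4 groups were unstressed males (NSM), stressed males (SM), unstressed females (NSF) and stressed females (SF), with 3 mRNA libraries each. The labels give no transgene, and females were sampled in proestrus or estrus only.

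The endogenous opioids are cut from larger precursor proteins. Enkephalins, from the *Penk* precursor, act mainly on the delta and mu receptors, dynorphins, from the *Pdyn* precursor, on the kappa receptor, and nociceptin, from the *Pnoc* precursor, on its own receptor. All 4 receptors couple to inhibitory G proteins, which lower cyclic AMP and open potassium channels. In the NAc, enkephalin is made mainly by medium spiny neurons with D2 dopamine receptors and dynorphin mainly by those with D1 receptors. Mu signalling there is known for its part in reward, and kappa signalling for aversion and the response to stress.

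The opioid core can be read in the coding sequences of the precursors. A run of residues, tyrosine, glycine, glycine and phenylalanine, open every enkephalin and dynorphin, and nociceptin opens with phenylalanine in place of tyrosine. The coding sequence of *Penk* (807 bases with the stop codon) held 7 copies of the first core, 6 followed by a methionine codon and 1 by a leucine codon. That of *Pdyn* (747 bases) held 3 copies, each followed by a leucine codon, and that of *Pnoc* (564 bases) held 1 copy of the nociceptin core. All 11 cores followed a pair of codons for lysine or arginine, the residues at which the convertases cut. One *Penk* core of each kind, the 3 *Pdyn* cores and the *Pnoc* core are shown here to set the precursors side by side. They were read from the GENCODE transcripts of the build NCBIM37, 5′ to 3′ on the minus strand, with the 12 bases of the core in capitals.
Penk, core 1, before methionine, chr4:4061475-4061501: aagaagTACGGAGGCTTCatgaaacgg
Penk, core 6, before leucine, chr4:4061082-4061108: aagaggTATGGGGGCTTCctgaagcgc
Pdyn, core 1, chr2:129513968-129513994: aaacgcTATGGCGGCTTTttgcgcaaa
Pdyn, core 2, chr2:129513860-129513886: aaacgcTATGGGGGCTTCctgcggcgc
Pdyn, core 3, chr2:129513803-129513829: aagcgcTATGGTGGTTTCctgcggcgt
Pnoc, chr14:66023709-66023735: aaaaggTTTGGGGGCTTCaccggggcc
The *Penk* cores lie in exon 2 of 2, the *Pdyn* cores in exon 4 of 4 and the *Pnoc* core in exon 3 of 4. Repeats of a core within a precursor are short, and the longest exact stretch shared between the transcripts of any 2 of the 7 genes was 25 bases (*Oprk1* with *Oprl1*), under the read length of 50 bases.

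Levels of different genes were compared per kilobase of merged exons (RPKM, reads scaled to library size and exon length), as means over the 12 libraries. *Penk* was highest with 879 RPKM and *Pdyn* next with 126 RPKM, with no overlap between any library of one and any of the other. Of the receptors, *Oprl1* (nociceptin receptor) had 11.0 RPKM, *Oprk1* (kappa) 9.50, *Oprd1* (delta) 5.95 and *Oprm1* (mu) 1.58. *Pnoc* was lowest with 1.35 RPKM, and its libraries ran from 0.528 to 2.86 RPKM, across the whole range of *Oprm1* (1.33 to 1.92 RPKM). The ranges of *Oprl1* (9.95 to 12.1 RPKM) and *Oprk1* (7.38 to 11.1 RPKM) also overlapped, and with the longest transcript as length *Oprk1* came first (13.9 against 13.3 RPKM). The merged exons of *Oprm1*, 8156 bases from 35 annotated transcripts, are far longer than its longest transcript (2749 bases), which lowers its RPKM. With that transcript as length it had 4.70 RPKM and kept its place.

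**Figure D1:**
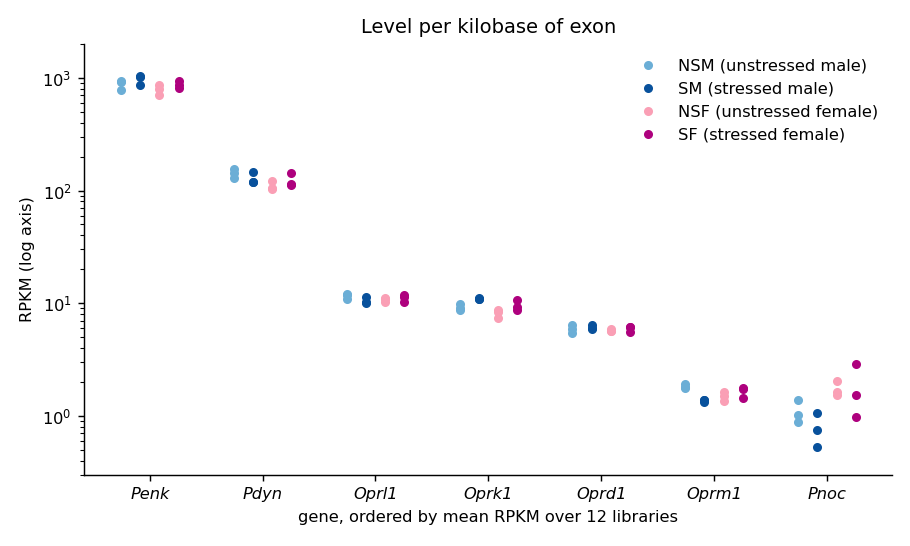
Level of the 7 opioid genes in RPKM (log axis), each point 1 library, coloured by group. *Penk* and *Pdyn* lie far above the receptors, and the points of *Oprm1* (1.33 to 1.92 RPKM) lie within the range of *Pnoc* (0.528 to 2.86 RPKM).

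Proenkephalin mRNA showed no change that met the thresholds in either sex. *Penk* (ENSMUSG00000045573, NCBIM37 chr4:4060678-4065966, minus strand, protein coding) had 1513, 1535 and 1289 CPM (edgeR's TMM-scaled counts relative to library size) in the NSM libraries and 1715, 1667 and 1409 CPM in the SM libraries. The NSF libraries had 1298, 1405 and 1145 CPM and the SF libraries 1525, 1317 and 1416 CPM, so that stressed and unstressed libraries overlapped in both sexes. Its log2 fold change was 0.14 (standard error, SE, 0.0943) in males and 0.15 (SE 0.0940) in females, with adjusted p values of 0.400 and 0.948 (limma). The difference between these effects was 0.01 with a 95% interval from -0.28 to 0.29. Between 53929 and 85754 reads per library stood behind these values. A lincRNA on the other strand, A830012C17Rik, shares 233 exon bases with *Penk* and had group means of 0.287 to 0.450 CPM.

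Prodynorphin mRNA differed more between unstressed males and females than with stress. *Pdyn* (ENSMUSG00000027400, chr2:129512301-129525580, minus strand, protein coding) had 413, 448 and 376 CPM in NSM, 421, 345 and 347 CPM in SM, 354, 307 and 298 CPM in NSF, and 412, 332 and 321 CPM in SF. All 3 NSF libraries lay below all 3 NSM libraries, while every other pair of groups overlapped. The log2 fold change of NSF against NSM was -0.37 (SE 0.105, unadjusted p = 0.00358, adjusted p = 0.134, limma), a decrease of 22.5% that is just under the fold threshold. Stress gave -0.15 (SE 0.105, adjusted p = 0.412) in males and 0.15 (SE 0.105, adjusted p = 0.948) in females, and the difference between these effects was 0.30 (SE 0.148, unadjusted p = 0.0617, adjusted p = 0.552, limma). Without SM replicate 1 that difference was 0.40 (adjusted p = 0.411) and met the thresholds, and the NSF difference met them without NSF replicate 1 (-0.45), NSM replicate 3 (-0.44) or SM replicate 2 (-0.38). With DESeq2 the NSF difference was -0.38 (adjusted p = 0.0300), and 439 of 18592 genes had an adjusted p under 0.05. Markers of cortical neurons, listed with the mu receptor, were higher in NSF than in NSM. With their level as a covariate the *Pdyn* difference was -0.21 (adjusted p = 0.978). That level did not overlap between NSM and NSF, so the fit cannot tell it apart from sex there. In that fit 905 of all genes had an unadjusted p under 0.05 in this comparison (2859 without the covariate). An adjusted p under 0.05 was left for 6 (53 without it). *Pdyn* correlated with the level of these markers at r = -0.66 over the 12 libraries and at r = -0.39 within groups.

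Pronociceptin mRNA was scarce. *Pnoc* (ENSMUSG00000045731, chr14:66019510-66044046, minus strand, protein coding) rested on 47 to 277 reads per library. It had 1.92, 1.67 and 2.62 CPM in NSM, 1.41, 0.999 and 2.02 CPM in SM, 2.88, 3.07 and 3.86 CPM in NSF, and 1.84, 5.42 and 2.90 CPM in SF. The NSF libraries were all above the NSM libraries, and 2 of the 3 SF libraries were above all SM libraries. *Pnoc* was the member called higher in stressed females than in stressed males, with a log2 fold change of 1.13 (SE 0.372, unadjusted p = 0.00888, adjusted p = 0.151, limma). Without SM replicate 2 this difference was 0.85 (adjusted p = 0.521) and no longer met the thresholds. It was 0.70 (adjusted p = 0.435) without SF replicate 2, the library at 5.42 CPM, and it was larger (adjusted p = 0.0347) without SF replicate 1. Markers of the hypothalamus and septum differed in the same comparison. Of 10 listed genes 6 were tested, and *Zic1*, a transcription factor, *Trpc4* and *Hdc* were called higher in SF than in SM, *Zic1* with a log2 fold change of 0.96 (SE 0.225, adjusted p = 0.0884). Of all genes 4.58% were called higher in that comparison. The list's summed level was 141 to 177 CPM in SM, 175 to 231 CPM in SF, 183 to 216 CPM in NSM and 167 to 198 CPM in NSF. *Dlk1*, which was not called between SF and SM, made up most of it, with means of 118 CPM in SM and 131 CPM in SF. The list's part in the *Pnoc* difference was not tested.

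The mu receptor was the opioid gene called lower after SCVS in males. *Oprm1* (ENSMUSG00000000766, chr10:3308332-3588035, minus strand, protein coding) had 14.5, 14.6 and 15.6 CPM in NSM and 10.9, 11.4 and 11.4 CPM in SM. All SM libraries lay below all NSM libraries. It was downregulated with a log2 fold change of -0.41 (SE 0.0832, adjusted p = 0.0211, limma), a decrease of 24.7%. Of the 7 genes it was the 1 called in males at the thresholds of the study (a fold of 1.3 or more and p under 0.05 before adjustment), beside 6.44% of all tested genes called in that comparison (4.08% lower, 2.36% higher). With limma it was also the 1 with an adjusted p under 0.05, beside 3.32% of all genes, while DESeq2 gave *Oprk1* such a p as well. DESeq2 gave one to 1035 of 18592 genes in males. At an unadjusted p under 0.05 alone there were 3 (*Oprm1*, *Oprk1* and *Oprl1*), beside 21.5%. Without NSM replicate 3, its highest library, the log2 fold change was -0.37 (adjusted p = 0.0979), under the fold threshold.

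In females *Oprm1* had 12.2, 13.2 and 11.1 CPM without stress and 14.0, 14.3 and 11.9 CPM with it, and the groups overlapped. The log2 fold change was 0.13 (SE 0.0822, adjusted p = 0.948, limma). The stress effects of the sexes differed by 0.54 on the log2 scale (SE 0.117, unadjusted p = 0.000392, adjusted p = 0.142, limma), which met the thresholds, as did 4.42% of all genes. None of the other 6 members met them or had an unadjusted p under 0.05, beside 9.55% of all genes. With DESeq2 the adjusted p of this difference was 0.0137 (130 of 18592 genes had one under 0.05). Sex differences of *Oprm1* ran in opposite directions without and with stress. NSF lay below NSM in all libraries, by -0.29 (SE 0.0798, unadjusted p = 0.00278, adjusted p = 0.127), and SF above SM in all libraries, by 0.25 (SE 0.0855, unadjusted p = 0.0103, adjusted p = 0.161). The NSM libraries (14.5 CPM or more) lay above every other library (14.3 CPM or less). These comparisons are not independent, since each group enters both a stress and a sex comparison.

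Markers of cortical neurons moved in the opposite direction to *Oprm1* in males. Of 10 listed markers of cortical glutamatergic neurons 9 were matched, and none was at 0 in a whole group. Their summed level was 25.2 to 39.1 CPM in NSM, 67.3 to 218 CPM in SM, 40.1 to 389 CPM in NSF and 62.5 to 135 CPM in SF. All 9 were higher in SM than in NSM, where limma called 2 and edgeR and DESeq2 called 7 each, beside 1198, 1224 and 920 of all 18593 tested genes (18592 with DESeq2). The 2 were *Slc17a7*, the vesicular glutamate transporter of these neurons (log2 fold change 3.29, SE 1.10, adjusted p = 0.115), and *Emx1* (2.35, SE 0.984, adjusted p = 0.189). All 9 were also higher in NSF than in NSM, with 6 called by limma and 8 each by edgeR and DESeq2, beside 988, 1009 and 735 of all genes. In stressed against unstressed females limma called 0 (0 also at an unadjusted p under 0.05), edgeR 4 and DESeq2 2, beside 322, 371 and 194 of all genes. Across the 12 libraries *Oprm1* correlated with the mean log2 level of these markers at r = -0.77, and within groups at r = -0.54. The values over the 12 libraries and within groups were -0.41 and -0.68 for *Penk*, -0.56 and -0.26 for *Oprl1*, 0.19 and 0.20 for *Pnoc* and -0.12 and -0.14 for *Oprd1*. These are descriptions over libraries that share groups. With the marker level as a covariate, the *Oprm1* difference in males was -0.28 (adjusted p = 0.227) and that between the sexes' stress effects 0.37 (adjusted p = 0.914), and neither met the thresholds. The difference of NSF from NSM was -0.15 (adjusted p = 0.978) in that fit. The marker level (mean log2 CPM) was -0.95 to 0.11 in NSM, below that of SM (0.83 to 2.58) and NSF (0.41 to 3.41) without overlap. In these comparisons that fit cannot tell the marker level apart from stress or sex. Over all genes, that fit gave 1 an adjusted p under 0.05 in males, where 618 had one without the covariate. For the difference of the stress effects 0 had one (5 without it), and for NSF against NSM 6 (53 without it). It called 1295 genes in males (1198 without the covariate) and 588 for the difference (822 without it). SM replicate 1 was the SM library lowest in cortical markers, although its level (0.83) still lay above all NSM libraries. With SM held to that library, the log2 fold change of *Oprm1* in males was -0.44. That choice was made after the data were seen, and it leaves an arm of 1 library that is assumed to vary like the other groups. The SM libraries were also shallower (41076780 to 48592005 reads) than the NSM libraries (48872076 to 55929512 reads). *Ipcef1*, on the other strand, shares 96 exon bases with *Oprm1* and had 29.5 CPM in NSM, 26.4 in SM, 35.9 in NSF and 23.4 in SF. It was called lower in SF than in NSF (-0.52, SE 0.215, unadjusted p = 0.0297, adjusted p = 0.948, limma). Its NSF libraries ran from 21.1 to 46.0 CPM and overlapped those of SF. The library kit did not mark strand, so reads from shared bases could not be told apart.

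**Figure D2:**
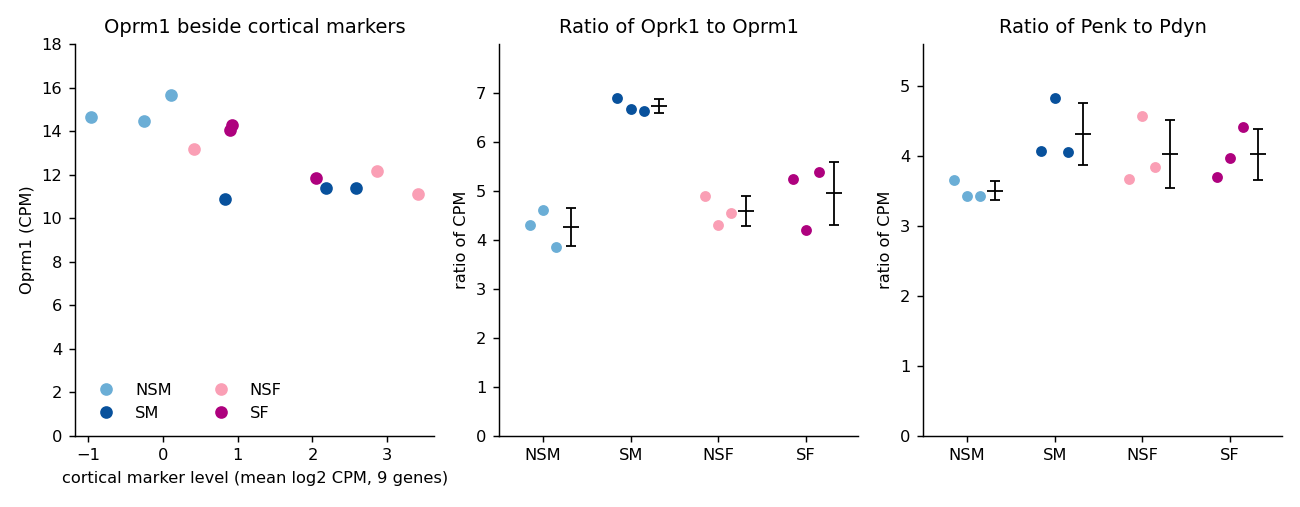
Left, *Oprm1* in CPM against the mean log2 CPM of 9 cortical markers in each of 12 libraries. Middle and right, ratios of CPM within each library by group, with mean and SD. *Oprm1* was lower in libraries with more cortical signal (r = -0.77). The ratio of *Oprk1* to *Oprm1* was 6.63 to 6.89 in SM and at most 5.38 in any other library.

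The delta receptor, the main target of enkephalin, was the steadiest of the 7 genes across libraries. *Oprd1* (ENSMUSG00000050511, chr4:131666641-131700401, minus strand, protein coding) ranged from 22.1 to 26.0 CPM, with 23.6, 26.0 and 22.1 CPM in NSM, 25.8, 24.5 and 23.7 in SM, 22.6, 22.7 and 23.9 in NSF, and 24.9, 22.2 and 25.0 in SF. Every pair of groups overlapped. The log2 fold change with stress was 0.05 in males (95% interval -0.10 to 0.20) and 0.06 in females (-0.09 to 0.20), so that changes beyond the 1.3-fold threshold lay outside both intervals.

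The kappa receptor, the target of dynorphin, was higher in stressed than in unstressed libraries of both sexes, below the fold threshold in each. *Oprk1* (ENSMUSG00000025905, chr1:5578574-5596212, plus strand, protein coding) had 62.3, 67.4 and 60.1 CPM in NSM and 74.9, 75.7 and 75.3 CPM in SM. It had 59.6, 56.7 and 50.5 CPM in NSF and 73.6, 60.0 and 63.8 CPM in SF. Stressed and unstressed libraries did not overlap in either sex, although SF replicate 2 lay just above the highest NSF library. The log2 fold change was 0.25 (SE 0.0754, unadjusted p = 0.00488, adjusted p = 0.0843, limma) in males and 0.24 (SE 0.0760, unadjusted p = 0.00686, adjusted p = 0.948, limma) in females. An unadjusted p under 0.05 in the same direction in both sexes was found for 1.05% of all genes. The difference between the 2 effects was -0.01 with a 95% interval from -0.24 to 0.22. In males 2 of the 7 genes had groups that did not overlap (*Oprm1* and *Oprk1*), beside 23% of all genes, and in females 1 did (*Oprk1*), beside 11.3%. *Oprk1* was also lower in females than in males, by -0.19 (SE 0.0759, adjusted p = 0.258) without stress and by -0.20 (SE 0.0755, adjusted p = 0.206) with it, and in both cases the groups did not overlap. With DESeq2 the adjusted p in males was 0.0375 (1035 of 18592 genes had one under 0.05). Its correlation with the cortical marker level was r = -0.13 over the 12 libraries and r = -0.32 within groups.

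The nociceptin receptor moved little. *Oprl1* (ENSMUSG00000027584, chr2:181449721-181455690, plus strand, protein coding) had 45.3, 41.04 and 44.2 CPM in NSM, 42.8, 37.3 and 38.1 in SM, 38.7, 41.5 and 40.7 in NSF, and 38.5, 44.4 and 42.4 in SF. Every pair of groups overlapped. In males the log2 fold change was -0.15 (SE 0.0667, unadjusted p = 0.0455, adjusted p = 0.223, limma) and in females 0.05 (SE 0.0664, adjusted p = 0.954, limma).

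**Figure D3:**
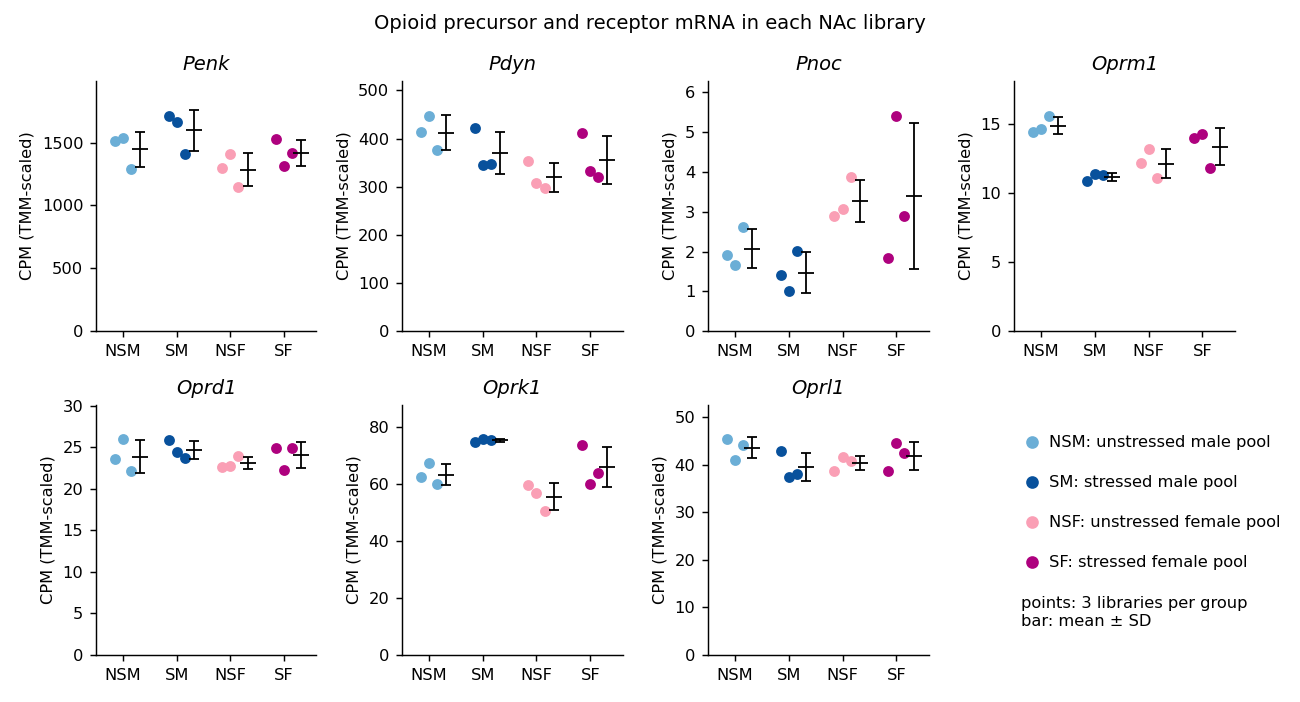
TMM-scaled CPM of each opioid gene in each of the 12 libraries by group, with the mean and SD over 3 libraries. The SM libraries of *Oprm1* (10.9 to 11.4 CPM) lie below all NSM libraries (14.5 to 15.6 CPM), and the stressed libraries of *Oprk1* lie above the unstressed ones in both sexes.

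Over the 7 genes, 3 log2 fold changes with stress were above 0 in males and 6 in females. Their median was -0.15 in males, beside -0.012 over all tested genes, and 0.13 in females, beside -0.0039. None of the 7 was called in females, where 1.73% of all genes were called with limma and 0 genes had an adjusted p under 0.05 (0 with edgeR and 3 with DESeq2). At an unadjusted p under 0.05 the count in females was 1 of the 7, *Oprk1*, beside 4.23% of all genes, and edgeR and DESeq2 also called 0 of the 7. In unstressed mice 6 of the 7 genes were lower in females (median -0.17, beside 0.0033 over all genes) and 0 were called with limma and with edgeR, beside 5.31% of all genes, while DESeq2 called *Pnoc*. The groups did not overlap for 4 of the 7 (*Pdyn*, *Pnoc*, *Oprm1* and *Oprk1*), beside 19.5% of all genes. An unadjusted p under 0.05 was found for 3 of the 7 (*Pdyn*, *Oprm1* and *Oprk1*), beside 15.4% of all genes. Between stressed males and females 1 was called (*Pnoc*), beside 5.55%, and 2 of the 7 did not overlap (*Oprm1* and *Oprk1*), beside 20.4%. An unadjusted p under 0.05 was found for 3 of the 7 (*Pnoc*, *Oprm1* and *Oprk1*), beside 16.4%. No member had an adjusted p under 0.05 with limma for the difference of the stress effects or for either sex comparison, where 0.0269%, 0.285% and 0.145% of all genes did. DESeq2 gave such a p to *Oprm1* for the difference (0.0137), to *Pdyn* in unstressed mice (0.0300) and to *Pnoc* in stressed mice (0.0173). Of 18592 genes DESeq2 gave one to 130, 439 and 551 in these comparisons. With limma such a p was reached by *Oprm1* without NSF replicate 2, for the difference (0.0262) and in unstressed mice (0.0495), and by *Pnoc* in stressed mice without SF replicate 1 (0.0347). Over all genes these fits gave one to 218, 473 and 513.

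**Figure D4:**
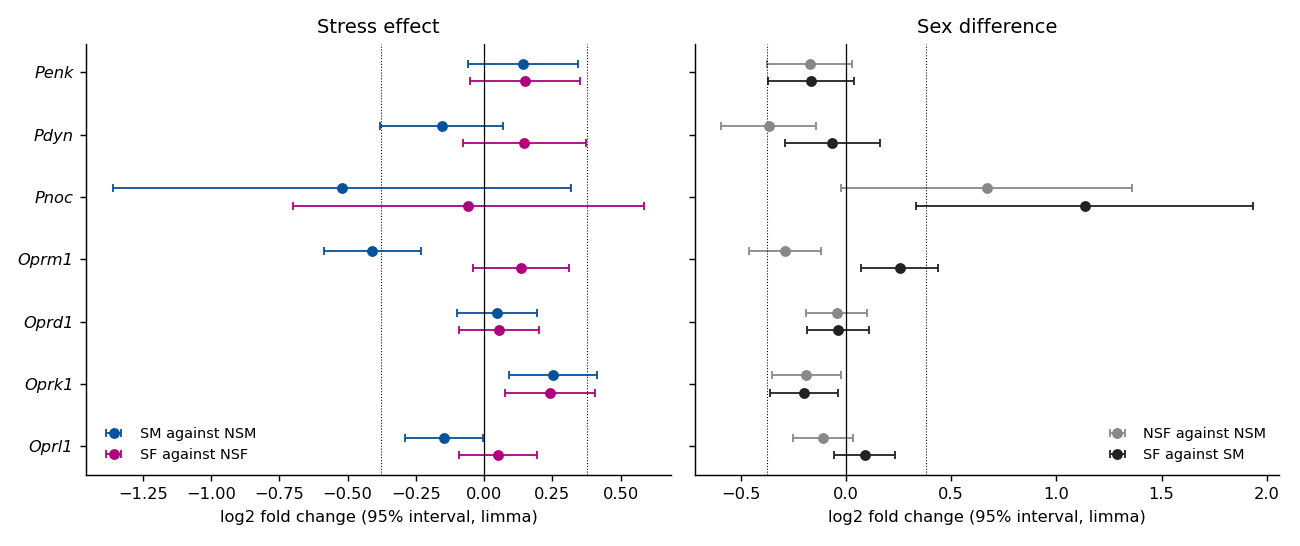
Log2 fold changes of the 7 opioid genes with their 95% intervals (limma), for stress in each sex (left) and for females against males (right). Dotted lines mark the fold threshold of 1.3. *Oprm1* lies on opposite sides of 0 in males (-0.41) and females (0.13), and *Oprk1* at nearly the same place (0.25 and 0.24).

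The balance between members was described within each library, a choice made after the values were seen. The ratio of *Oprk1* to *Oprm1* CPM was 4.25 ± 0.386 (SD, n = 3) in NSM, 6.72 ± 0.143 in SM, 4.58 ± 0.299 in NSF and 4.94 ± 0.643 in SF. All SM libraries lay above the other 9. An exact permutation test of 3 against 3 libraries cannot go below p = 0.10. *Oprm1* made up 6.40% ± 0.399 of the receptor RPKM in NSM and 4.74% ± 0.271 in SM, and *Oprk1* 32.3% ± 1.40 and 38.0% ± 1.40. The ratio of *Penk* to *Pdyn* was 3.43 to 3.66 in NSM and 4.06 to 4.83 in SM, without overlap, while NSF (3.67 to 4.58) and SF (3.70 to 4.41) overlapped. All NSM libraries lay below the other 9, so that NSM was the group apart in this ratio. *Penk* and *Oprk1* varied together over the 12 libraries (r = 0.83), and *Pnoc* ran against both (r = -0.84 with *Penk* and -0.79 with *Oprk1*), which describes these libraries with groups pooled.

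Markers of the medium spiny neurons, which make most of the peptides, were checked beside them. The 11 shared markers summed to 8706 to 9611 CPM in NSM, 9517 to 10582 in SM, 8747 to 10275 in NSF and 9222 to 10316 in SF, and 10 of 11 were higher with stress in each sex. Of these 11, 0 were called with limma, edgeR or DESeq2. With limma 3 had an unadjusted p under 0.05 in males, beside 21.5% of all genes, and 0 in females, beside 4.23%. Of the D1 markers 0 of 7 were called in any comparison with limma, while edgeR and DESeq2 called 1 for the difference between the stress effects. With limma 3 of the 7 had an unadjusted p under 0.05 in males, beside 21.5% of all genes, and 1 in females, beside 4.23%. *Drd1* was at 308 CPM in NSM and 356 in SM (adjusted p = 0.195) and *Tac1*, the precursor of substance P, at 295 and 298 CPM. Of the D2 markers 6 of 7 were matched, and *Plxdc1* was called higher in stressed males (log2 fold change 0.44, adjusted p = 0.00612) and *Sp9* higher in SF than in SM (0.52, adjusted p = 0.0950). The receptors *Drd2* (140 CPM in NSM, 150 in SM) and *Adora2a* (272 and 283 CPM) overlapped between groups. *Oprm1* is enriched in striosomes, the patches of the striatum. Of 6 striosome markers 5 were lower in SM than in NSM, and the 6 summed to 269 to 299 CPM in NSM and 260 to 261 CPM in SM. *Kremen1* was higher in SM (0.33, SE 0.0628, adjusted p = 0.0183, fold under 1.3). In females, where *Oprm1* was not lower with stress, also only 1 of the 6 was higher in SF than in NSF. Their sums were 261 to 287 CPM in NSF and 249 to 276 CPM in SF. Of the 6, 0 were called, and 2 had an unadjusted p under 0.05 in each sex with limma, beside 21.5% of all genes in males and 4.23% in females. Of 5 matrix markers 4 were higher in SM, with 0 called by limma, edgeR or DESeq2 and 3 at an unadjusted p under 0.05 (limma), beside 21.5% of all genes. In SF 3 of the 5 were higher than in NSF. *Rasgrp2* was called higher in NSF than in NSM (0.42, adjusted p = 0.106). The part of the striosome and matrix markers in the *Oprm1* difference was not tested. In this pooled tissue fewer cells of a type and less RNA per cell cannot be told apart.

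Other cell types were listed as well. Of 12 interneuron markers, *Pvalb* was called higher (0.93, adjusted p = 0.128) and *Calb2* lower (-0.57, adjusted p = 0.153) in stressed males, *Pvalb* was called higher in NSF than in NSM (0.71, adjusted p = 0.312), and *Lhx6* was called for the difference between the stress effects (0.39, adjusted p = 0.273). The peptide genes *Sst* (105 CPM in NSM, 134 in NSF, adjusted p = 0.187) and *Npy* (34.2 and 38.5 CPM, adjusted p = 0.329) were not. Of 5 claustrum markers, *Nr4a2* was called higher in stressed males (2.16, adjusted p = 0.206) and *Ntng2* in NSF (1.08, adjusted p = 0.152). For the difference between the stress effects *Nr4a2* (-2.79, adjusted p = 0.490, limma) and *Ntng2* (-1.20, adjusted p = 0.446, limma) were called as well. Of the hypothalamic and septal markers, *Dlk1* was called lower in SM than in NSM (-0.43, adjusted p = 0.0632). In NSF against NSM *Zic1* (0.63, adjusted p = 0.184) and *Trpc4* (0.59, adjusted p = 0.232) were called higher and *Dlk1* lower (-0.42, adjusted p = 0.127). *Dlk1* was also called for the difference between the stress effects (0.59, adjusted p = 0.273, limma).

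The machinery around the peptides and receptors was described in 59 other genes on 4 lists, all of which were tested. In males 6 of 59 were called, 4 higher and 2 lower, beside 6.44% of all genes, of which most were lower. An adjusted p under 0.05 was found for 6 of 59, of which 2 were also called, beside 3.32% of all genes. In males 3 were called without NSM replicate 3 and 2 without SM replicate 2. In females 0 of 59 were called or had an unadjusted p under 0.05 with limma, and edgeR and DESeq2 called 1, the potassium channel gene *Kcnj6*. For the difference between the stress effects 5 were called, 2 positive and 3 negative, beside 2.25% and 2.17% of all genes. The median log2 fold change over the 59 genes was 0.06 in males and 0.01 in females, beside -0.012 and -0.0039 over all genes.

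Among 10 genes of precursor processing, the prohormone convertase *Pcsk1*, which makes the first cuts in the precursors, was downregulated in males. It had 15.4 to 17.1 CPM in NSM and 10.4 to 11.5 CPM in SM (log2 fold change -0.58, SE 0.129, adjusted p = 0.0312, limma), and 11.8 to 18.1 CPM in NSF and 13.3 to 15.7 CPM in SF (-0.01, SE 0.122). The difference between these effects was 0.57 (SE 0.178, unadjusted p = 0.00639, adjusted p = 0.318), and *Pcsk1* was also called higher in SF than in SM (0.43, adjusted p = 0.131). The second convertase, *Pcsk2*, was higher in all SM libraries (335 to 391 CPM) than in NSM (272 to 313 CPM), with a log2 fold change of 0.29 (SE 0.0705, adjusted p = 0.0430) under the fold threshold. The carboxypeptidase *Cpe*, which trims the basic residues left by the convertases, was at 1798 ± 95.7 CPM in NSM and 1882 ± 54.8 in SM (SD, n = 3, adjusted p = 0.462). *Pcsk1n*, the inhibitor of *Pcsk1*, was called higher in females, by 1.54 without stress (SE 0.523, adjusted p = 0.184) and by 2.24 with it (SE 0.575, adjusted p = 0.0951), with single libraries from 14.6 to 87.1 CPM in NSM and 53.6 to 147 CPM in SF.

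Of 11 peptidases that break opioid peptides down, *Ace*, which cleaves enkephalin among other peptides, was called higher in SM (7.41 ± 0.228 CPM) than in NSM (5.67 ± 0.951 CPM; log2 fold change 0.39, SE 0.147, adjusted p = 0.149) and in NSF than in NSM (0.43, SE 0.143, adjusted p = 0.173). Neprilysin, *Mme*, the main enkephalinase, had 34.7 ± 5.73 CPM in NSM and 40.5 ± 3.64 CPM in SM (adjusted p = 0.264). *Anpep*, an aminopeptidase that removes the first residue of enkephalin, was called for the difference between the stress effects (-0.49, SE 0.214, adjusted p = 0.498) at group means of 1.75 to 2.21 CPM, and was not called with DESeq2. Of 4 other ligand and receptor genes, *Pomc*, the precursor of beta-endorphin, had 0.276 to 1.75 CPM and was called higher in SF than in SM (1.20, SE 0.389, adjusted p = 0.147). *Ogfrl1*, a relative of the opioid growth factor receptor gene, was higher in SM with an adjusted p of 0.0269 at a log2 fold change of 0.26.

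Among 34 genes of receptor signalling, 3 were called higher and 1 lower in stressed males. *Adcy1*, a calcium-stimulated adenylyl cyclase, had 197 to 216 CPM in NSM and 265 to 294 CPM in SM (log2 fold change 0.46, SE 0.0959, adjusted p = 0.0245), and 247 to 344 CPM in NSF and 245 to 284 CPM in SF (-0.18, SE 0.0960, adjusted p = 0.948). Its NSM libraries lay below those of every other group. *Rgs4*, which shortens signals of inhibitory G proteins, was 370 ± 27.1 CPM in NSM and 498 ± 55.1 CPM in SM (0.42, SE 0.114, adjusted p = 0.0598). Of the potassium channels that these receptors open, *Kcnj3* was called higher (0.42, SE 0.182, adjusted p = 0.207) and *Kcnj5*, at 1.92 and 1.23 CPM, lower (-0.66, SE 0.214, adjusted p = 0.105). Other regulators had an adjusted p under 0.05 with a fold under 1.3. *Rgs7* was higher (0.30, adjusted p = 0.0363) and *Gprasp2*, whose product sorts G protein-coupled receptors, lower (-0.34, adjusted p = 0.0183). *Rgs19* did not differ in any comparison at an unadjusted p under 0.05 (11.5 ± 1.17 CPM in NSM, 11.0 ± 1.36 in SM).

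Several of these genes also differed between unstressed females and males, where 6 of 59 were called (5 higher, 1 lower in females), beside 4.17% and 1.15% of all genes. *Adcy1* was higher in NSF (0.51, SE 0.0960, adjusted p = 0.0456), as were *Kcnj3* (0.54, SE 0.178, adjusted p = 0.171) and *Kcnj6* (1.02, SE 0.348, adjusted p = 0.186), and *Kcnj5* was lower (-0.71, SE 0.210, adjusted p = 0.145). The cortical markers above were higher in NSF as well. With their level as a covariate 2 of 59 were called, beside 451 of all 18593 tested genes (988 without the covariate). That level did not overlap between NSM and NSF, so the fit cannot tell it apart from sex there. Between SF and SM 4 of 59 were called, all higher in females, beside 4.58% of all genes, among them *Rtp4*, a chaperone that brings mu and delta receptors to the membrane (0.38, SE 0.158, adjusted p = 0.252, at 0.83 to 1.25 CPM in these libraries). Neither edgeR (0.37) nor DESeq2 (0.36) called *Rtp4*.

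**Figure D5:**
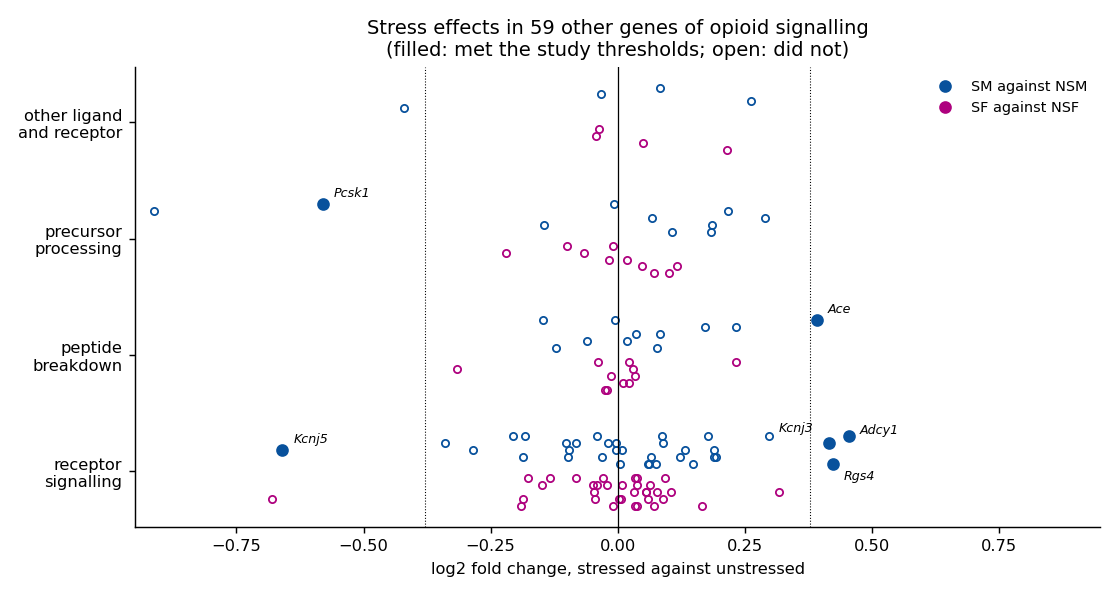
Log2 fold changes with stress of the 59 other genes on the 4 lists, males in blue and females in magenta, with genes that met the thresholds filled and named and the dotted lines at a fold of 1.3. All 6 filled points are of males, 4 to the right and 2 to the left.

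The genes whose pattern was most like that of a member were ranked by the correlation of log2 CPM over the 12 libraries among 17573 genes with a mean of at least 10 reads. *Penk* was followed most closely by *Cacna2d3* (r = 0.98), 2510009E07Rik (0.97) and *Gnal* (0.96), and *Pdyn* by *Gpr149* (0.94), *Chn2* (0.94) and *Foxp2* (0.92). For *Pnoc* they were *Mta3* (0.96), *Gm98* (0.96) and *Aard* (0.95). For *Oprm1* they were *Serpinb2* (0.92), *Stat5b* (0.92) and *Zdbf2* (0.91), and for *Oprd1* *Phospho2* (0.88), *Mob1a* (0.87) and *Fam116a* (0.87). *Oprk1* was followed by *Cdc40* (0.93), *Ankrd37* (0.92) and 1500035N22Rik (0.91), and *Oprl1* by *Igsf1* (0.95), 6330403K07Rik (0.94) and *Dgkk* (0.94). With so many genes ranked over 12 libraries, high values occur by rank alone, and these are descriptions.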

How the data were processed

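Messenger RNA of the NAc was measured in 12 pooled libraries. The authors aligned paired reads with TopHat2 to NCBIM37 and counted them per Ensembl gene with HTSeq, and the values they deposited are raw counts, without normalization. The strand setting is not given in the sources used here. Small RNA counts were not used here. Libraries were assigned to groups by their labels and held 41076780 to 60867747 counts, so that *Oprm1* rested on 432 to 820 reads and fold changes under 5 CPM are imprecise.

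The filter kept genes for which 80% of any group's libraries held over 5 reads. They were tested in R 4.3.3 with limma 3.58.1 (voom, one mean per group over all 12 libraries) after TMM scaling with edgeR 4.0.16. The 5 comparisons were stress in each sex, the difference between these effects, and sex in each condition. The study's thresholds for a call were used (p under 0.05, unadjusted, with a fold of 1.3 or more), and p values were adjusted over every tested gene by Benjamini-Hochberg. The steps were tested on simulated data. CPM are TMM-scaled, and RPKM use merged exon lengths of GENCODE vM1. Alternatives were DESeq2 1.42.0, the quasi-likelihood test of edgeR, other scalings and filters, fits to 6 libraries, the adjusted p alone, the cortical marker level as a covariate, the replicate number as a block and leaving out each library.

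The members and gene lists were chosen with earlier results of these data known. Named were the 7 members, listed genes that were called (of longer sets those with the smallest p) and a few listed in any case. Same-numbered libraries are different mice, and their deviations correlated between 0.00073 and 0.316 within a sex, not above 0.1 in every pair, so that the numbers were not taken to pair libraries. Nothing says that pools came from separate cohorts, and p values measure the spread between pools.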

Additional observations from a re-analysis of the deposited data

Results flagged for a closer look

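The stress effects of males and females differed, by the test of the difference itself and at the thresholds used throughout, for 6 of the 66 opioid genes and pathway genes, none of them with an adjusted p under 0.05 (limma), beside 4.42% of all genes that met the thresholds. *Oprm1* differed by 0.54 on the log2 scale (SE 0.117, adjusted p = 0.142), with all SM libraries below NSM and overlapping female groups. *Pcsk1* differed by 0.57 (SE 0.178, adjusted p = 0.318), and *Kcnj5* by 0.98 (SE 0.309, adjusted p = 0.322) at under 3 CPM. The difference was negative for *Adcy1* (-0.63, SE 0.136, adjusted p = 0.142), *Kcnj3* (-0.56, SE 0.252, adjusted p = 0.505) and *Anpep* (-0.49, SE 0.214, adjusted p = 0.498), which DESeq2 did not call. The cortical markers moved the other way from *Oprm1* in this contrast, with 6 of 9 called and all 9 negative. Their part in these differences was not tested. In the fit with their level as a covariate *Oprm1* was 0.37, but that level did not overlap between NSM and SM. That fit therefore cannot tell it apart from stress in males.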

How the results depend on the processing

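Of 378 values of the members under other settings, 355 kept direction and side of the thresholds, and 388 of 420 with one library left out. Most of these values were not called in the main fit, where 1 member was called in males, 1 for the difference and 1 in stressed mice. These totals therefore say little about the calls, which are followed next. The number of members called in males (1) was 0 with the cortical covariate and 0 to 1 with a library left out (0 without NSM replicate 3), and in females it was 0 under all settings. For the difference of the stress effects (1) it was 0 with the covariate, 0 by the adjusted p and 1 to 2 with a library left out (2 without SM replicate 1). In unstressed mice (0) it was 1 with DESeq2, 1 by library size, 2 with 6 libraries, 1 without the 2 NSF libraries highest in cortical markers and 0 to 2 with a library left out (2 without NSM replicate 3). In stressed mice (1) it was 0 by the adjusted p, 0 without the 2 SM libraries highest in cortical markers and 0 to 1 with a library left out (0 without SM replicate 2).

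Pathway genes called in males (6) were 3 without those 2 SM libraries, an arm of 1 library, and ranged from 2 to 6 with a library left out, 2 without SM replicate 2 and 3 without NSM replicate 3. In females (0) edgeR and DESeq2 gave 1 each, and leaving out a library 0 to 2, with 2 without NSF replicate 2 and 1 without NSF replicate 1, SF replicate 1 or SF replicate 3. For the difference (5) there were 3 by library size, 3 with the covariate, 3 without the 2 NSF and 2 without the 2 SM libraries, 0 by the adjusted p, and 3 to 5 with a library left out (3 without NSF replicate 3, NSM replicate 2, SF replicate 1 or 2). In unstressed mice (6) there were 2 with the covariate, 3 without the 2 NSF libraries, 1 by the adjusted p and 5 to 7 with a library left out, and in stressed mice (4) 2 without the 2 SM libraries, 0 by the adjusted p and 2 to 4 with a library left out (2 without SM replicate 2). *Oprk1* in SM was 75.9 CPM by DESeq2 size factors and 74.1 by library size.

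Signs that turned were of values not called in the report. In males they were *Pdyn* (0.047 without the 2 SM libraries) and *Oprd1* (-0.0019 by library size). In females *Pnoc* turned with edgeR (0.0581), DESeq2 (0.0582), the covariate (0.010) and without the 2 NSF libraries (0.034), and ranged from -0.48 to 0.31 with a library left out. For the difference, *Penk* was -0.0031 with DESeq2, -0.29 with the covariate, -0.13 without the 2 NSF and -0.11 without the 2 SM libraries (-0.082 to 0.084 with a library left out), *Oprd1* -0.026 with the covariate and -0.074 without the 2 SM libraries (-0.065 to 0.063), and *Oprk1* 0.020 by library size (-0.096 to 0.051). *Penk* in unstressed mice was 0.069 with the covariate and *Oprl1* in stressed mice -0.057 without the 2 SM libraries. With a library left out *Oprd1* ranged from -0.10 to 0.014 in unstressed and -0.074 to 0.0087 in stressed mice, and *Pdyn* from -0.18 to 0.020 in stressed mice. The causes were not tested. The 2 libraries left out together were chosen after the data were seen, and each such fit leaves an arm of 1 library, NSF or SM, assumed to vary like the other groups.

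With the replicate number as a block, 1 member was called in males (*Oprm1*, -0.41, adjusted p = 0.0161) and 1 pathway gene in females. *Oprk1* in males had an adjusted p of 0.0487 in that fit and *Pdyn* in unstressed mice 0.0161. Genes with an adjusted p under 0.05 rose from 618 to 998 in males. They rose from 27 to 837 between stressed males and females and from 53 to 562 between unstressed ones. In females each number correlated best with itself between NSF and SF, and in males 1 of 3 did.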
